A study of Mus musculus with 6 samples.

Results

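The type 1 vomeronasal receptors (V1Rs) with the lowest gene numbers, Vmn1r1 to Vmn1r48 and Vmn1r50 to Vmn1r54, were followed in poly(A) RNA of the mouse vomeronasal organ. The members were chosen by gene symbol alone. They are 53 of the 35450 genes quantified and 53 of the 198 V1R genes compared, which are the members and the 145 from Vmn1r55 upward and not the whole family. RNA came from 3 wild-type mice (Cnpy1+/+) and 3 littermates homozygous for a Cnpy1 knockout (Cnpy1-/-), all at postnatal day 60. Each genotype had 2 males and 1 female, and each directional library was made from both organs of 1 mouse. The labels do not describe the knockout allele or the strain, and the whole organ was taken without separating cell types.

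V1Rs are G protein-coupled receptors of the apical sensory neurons of the vomeronasal organ, where they detect pheromones and other small molecules. Their signal passes through the G protein subunit Gnai2 to the cation channel Trpc2. A V1R neuron is known to express mainly 1 receptor gene, so that a receptor's RNA in the whole organ reflects both the number of neurons that chose it and the RNA each of them holds. In whole-organ RNA, fewer cells and less RNA per cell cannot be told apart. Receptor genes lie in clusters of recent duplicates, many of them nearly identical. Under their older names, most members belong to the V1rc family or to the V1ra and V1rb families. Mice that lack a chromosome 6 interval with V1ra and V1rb genes are known for altered sexual and aggressive behaviour.

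Cnpy1 encodes an endoplasmic reticulum protein and was examined first as a check of the labels. It stood at 280.0, 303 and 325 CPM in wild types and at 67.2, 77.6 and 76.3 CPM in knockouts, so the knockouts kept some Cnpy1 RNA. CPM, the depth-scaled reads of a gene, carry TMM scaling factors here. Gnai2 (620 to 749 CPM), Trpc2 (234 to 340 CPM) and Omp (888 to 1264 CPM), the markers of apical neurons, of vomeronasal neurons and of mature olfactory neurons, were found in every library. Totals were 60969508 to 71670766 estimated reads. Knockout replicate 3 and wild-type replicate 3 held the highest member levels. They were the 2 libraries with the highest TPM for 34 of the 48 members tested, and knockout replicate 2 had the lowest TPM for 23.

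By position the members form 5 groups (GRCm38, GENCODE M21). Vmn1r1 lies alone at chr1:182154704-182164486, and Vmn1r2 and Vmn1r3 at chr4:3167320-3185358. The first chromosome 6 group holds 28 genes, Vmn1r4 to Vmn1r31, at chr6:56924015-58475330. The second holds 8 genes, Vmn1r32 to Vmn1r39, at chr6:66552180-66810609. The third holds 14 genes, Vmn1r40 to Vmn1r48 and Vmn1r50 to Vmn1r54, at chr6:89707540-90271213. RefSeq synonyms gave a V1rc name to 25 members of the first group and 6 of the second. In the third group, all 14 carried V1ra or V1rb names.

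Every member is annotated with its whole coding sequence in 1 exon, of 888 to 1017 bases without the stop codon. Median coding identity was 83.6% between members of the first group, 89.96% within the second and 71.6% within the third. It was 82.9% between the first and second groups and 61.5% between the second and the third. Of the 53 members, 47 had more than 50% of their 31-base words in no other gene quantified, and 14 had more than 90%. A read that fits several members was divided among them by estimation, so levels of members with few unique words are less certain.

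The near-identical members are shown by short coding stretches, because within the coding sequence a read can tell them apart only over the few bases at which they differ. Noncoding exons add further differences. The second chromosome 6 group contains the most abundant member, Vmn1r37, and 3 close relatives of it. Vmn1r37 and Vmn1r36 differed at 10 of 906 aligned coding bases, and their longest identical run was 396 bases. Vmn1r35 and Vmn1r34 had 95.9% and 94.1% coding identity to Vmn1r37. Coding bases 363 to 452 of these genes are given 5′ to 3′ on the coding strand, with capitals where a gene differs from Vmn1r37 (6 bases in Vmn1r36, 5 in Vmn1r35 and 6 in Vmn1r34). The stretches lie at chr6:66731754-66731843 (plus strand) for Vmn1r37, and on the minus strand at chr6:66716438-66716527 for Vmn1r36, chr6:66679233-66679322 for Vmn1r35 and chr6:66637301-66637390 for Vmn1r34.
Vmn1r37: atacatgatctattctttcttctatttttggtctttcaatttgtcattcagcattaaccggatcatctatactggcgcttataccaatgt
Vmn1r36: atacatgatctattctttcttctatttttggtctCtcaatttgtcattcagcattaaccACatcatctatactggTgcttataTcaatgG
Vmn1r35: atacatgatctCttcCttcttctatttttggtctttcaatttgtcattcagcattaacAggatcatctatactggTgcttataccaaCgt
Vmn1r34: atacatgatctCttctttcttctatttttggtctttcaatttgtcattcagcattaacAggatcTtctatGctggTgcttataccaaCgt

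Of 5 other pairs with more than 97% coding identity, 4 are shown likewise, with capitals where the pair differs. The pair left out, Vmn1r2 and Vmn1r3 (99.0% identity), had almost no reads. Vmn1r9 (chr6:57071253-57071312) and Vmn1r10 (chr6:57113736-57113795), both on the plus strand, differed at 15 of 897 coding bases. Vmn1r47 (chr6:90022648-90022707, plus strand) and Vmn1r48 (chr6:90036022-90036081, minus strand) differed at 22 of 906 coding bases, 8 of them in the stretch shown. Vmn1r20 (chr6:57432433-57432492, plus strand) and Vmn1r27 (chr6:58215216-58215275, minus strand) differed at 23 of 909. Vmn1r7 (chr6:57024511-57024570, minus strand) and Vmn1r8 (chr6:57036669-57036728, plus strand) differed at 24 of 909.
Vmn1r9: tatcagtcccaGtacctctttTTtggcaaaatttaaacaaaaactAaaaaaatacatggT
Vmn1r10: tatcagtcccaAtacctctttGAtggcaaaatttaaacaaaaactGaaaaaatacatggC
Vmn1r47: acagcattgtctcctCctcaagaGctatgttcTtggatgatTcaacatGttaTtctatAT
Vmn1r48: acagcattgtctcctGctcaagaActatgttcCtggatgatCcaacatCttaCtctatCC
Vmn1r20: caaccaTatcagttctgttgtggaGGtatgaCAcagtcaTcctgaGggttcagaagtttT
Vmn1r27: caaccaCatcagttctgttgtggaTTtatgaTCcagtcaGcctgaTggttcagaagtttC
Vmn1r7: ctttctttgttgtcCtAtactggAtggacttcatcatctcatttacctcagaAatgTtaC
Vmn1r8: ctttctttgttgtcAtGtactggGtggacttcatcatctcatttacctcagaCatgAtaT

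Levels were compared between genes in TPM, which are scaled by transcript length. Levels were uneven among the members. Vmn1r37, annotated at chr6:66729382-66733039, had 84.0, 111 and 119.6 TPM in wild types and 86.8, 76.3 and 129 TPM in knockouts. It was the most abundant of the 198 V1Rs compared in wild types and alone held 20.4% of the members' TPM. With 48.3% unique words it is among the less certain levels, since it shares 44.9% of its words with Vmn1r36. The median member stood at 4.53 TPM in wild types and 4.46 TPM in knockouts, above the median of 2.20 TPM for the 145 V1Rs from Vmn1r55 upward in wild types. The 10 most abundant members held 67.3% of the members' TPM in wild types, and the same 10 led in knockouts. Of the summed TPM of the 198 V1Rs compared, the members held 41.3% ± 1.07 (SD, n = 3) in wild types and 40.1% ± 1.38 in knockouts, being 26.8% of the genes. Their part was smaller in reads, which are not scaled by length. In wild types the members summed to 778 CPM and the 145 others to 1785 CPM, without TMM scaling.

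Vmn1r35 followed with 48.5, 51.0 and 56.8 TPM in wild types and 47.3, 41.2 and 60.0 in knockouts. Vmn1r27 had 28.7, 35.9 and 43.7 TPM in wild types and 34.9, 30.1 and 44.8 in knockouts. Vmn1r33 had 24.7, 30.4 and 35.6 TPM in wild types and 29.4, 26.6 and 31.8 in knockouts. For each of these receptors the genotypes overlapped, and replicate 3 was the highest library of both genotypes. The wild-type ranges of Vmn1r37, Vmn1r35 and Vmn1r27 did not overlap, whereas those of Vmn1r27 and Vmn1r33 did.

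Vmn1r39 had 26.9, 26.6 and 31.4 TPM in wild types and 25.7, 26.1 and 29.8 in knockouts. Vmn1r51, a V1ra receptor with the older names V1ra1 and VN12, had 20.1, 23.0 and 24.5 TPM in wild types and 22.3, 19.1 and 26 in knockouts. Vmn1r28 had 16.4, 22.4 and 26.9 TPM in wild types and 22.0, 20 and 26.6 in knockouts. These 3 receptors also overlapped between the genotypes. Vmn1r32 had 17.6, 18.6 and 24.9 TPM in wild types and 16.7, 16.2 and 24.1 in knockouts. Vmn1r38 had 13.1, 16.02 and 16.05 TPM in wild types and 17.4, 11.9 and 19.9 in knockouts. Vmn1r34 had 13.0, 14.1 and 16.1 TPM in wild types and 15.1, 12.2 and 17.05 in knockouts. The groups overlapped for each of them, and knockout replicate 3 was above knockout replicates 1 and 2 throughout. Further down the order the levels ran together. Only 6 of 49 pairs of neighbours in the order had wild-type ranges that did not overlap.

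In wild types 13 members averaged at least 10 TPM, and 38 had at least 1 TPM in every library of both genotypes. Of the 11 members under 1 TPM in wild types, 6 were Vmn1r14, Vmn1r19, Vmn1r48, Vmn1r15, Vmn1r24 and Vmn1r25, which had 0.377 to 0.883 TPM on average. Vmn1r3, Vmn1r7 and Vmn1r53 were listed at 0 reads in all 6 libraries. Vmn1r2 had 1.04 estimated reads in wild-type replicate 1 and 1.06 in knockout replicate 2, and Vmn1r23 had at most 3.04 in any library. With these 5 left out by the filter on low counts, 48 members were tested.

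**Figure D1:**
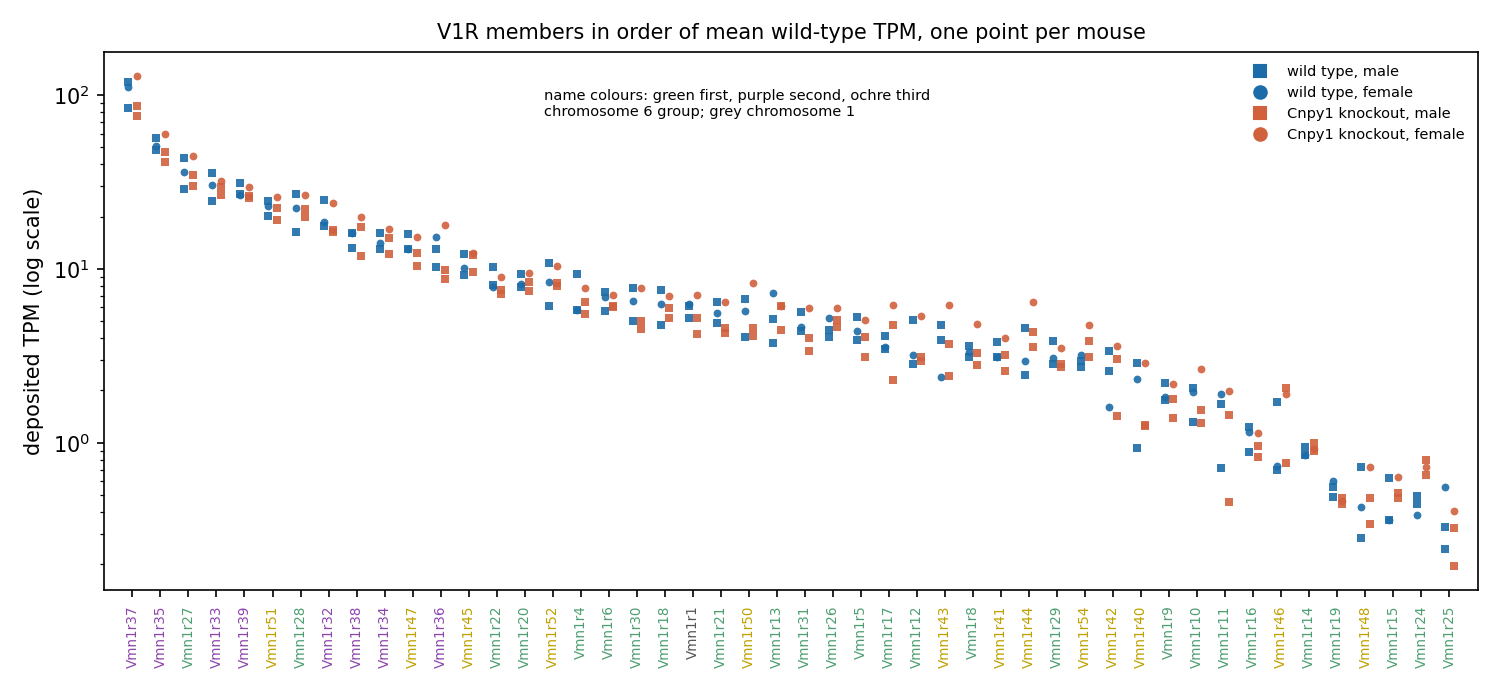
Deposited TPM of the 48 members tested on a log axis, in order of their mean wild-type level, with 1 point per mouse (blue wild type, orange Cnpy1 knockout, squares male, circles female) and names coloured by chromosome group. Vmn1r37 stands apart at the top with 76.3 to 129 TPM, and from Vmn1r22 downward the mice of neighbouring receptors overlap for most pairs.

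Abundance was uneven between the chromosome groups. The second chromosome 6 group, 15.1% of the members, held 54.2% ± 0.880 (SD, n = 3) of the members' TPM in wild types and 52.7% ± 0.470 in knockouts. In CPM, without TMM or length scaling, it held a smaller part, 338 of the members' 778 in wild types. All 8 of its receptors averaged at least 10 TPM, from 12.8 to 105, and all ranked among the 12 most abundant members. The first chromosome 6 group held 29.0% ± 0.725 in wild types and 29.6% ± 0.528 in knockouts, with a median receptor at 3.72 TPM. Here Vmn1r27 and Vmn1r28, which are adjacent members in the order along the chromosome, were the 2 above 10 TPM. The third group held 15.6% ± 0.606 in wild types and 16.6% ± 0.428 in knockouts, with a median of 3.33 TPM. Its 3 receptors above 10 TPM were Vmn1r51, Vmn1r47 and Vmn1r45.

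**Figure D2:**
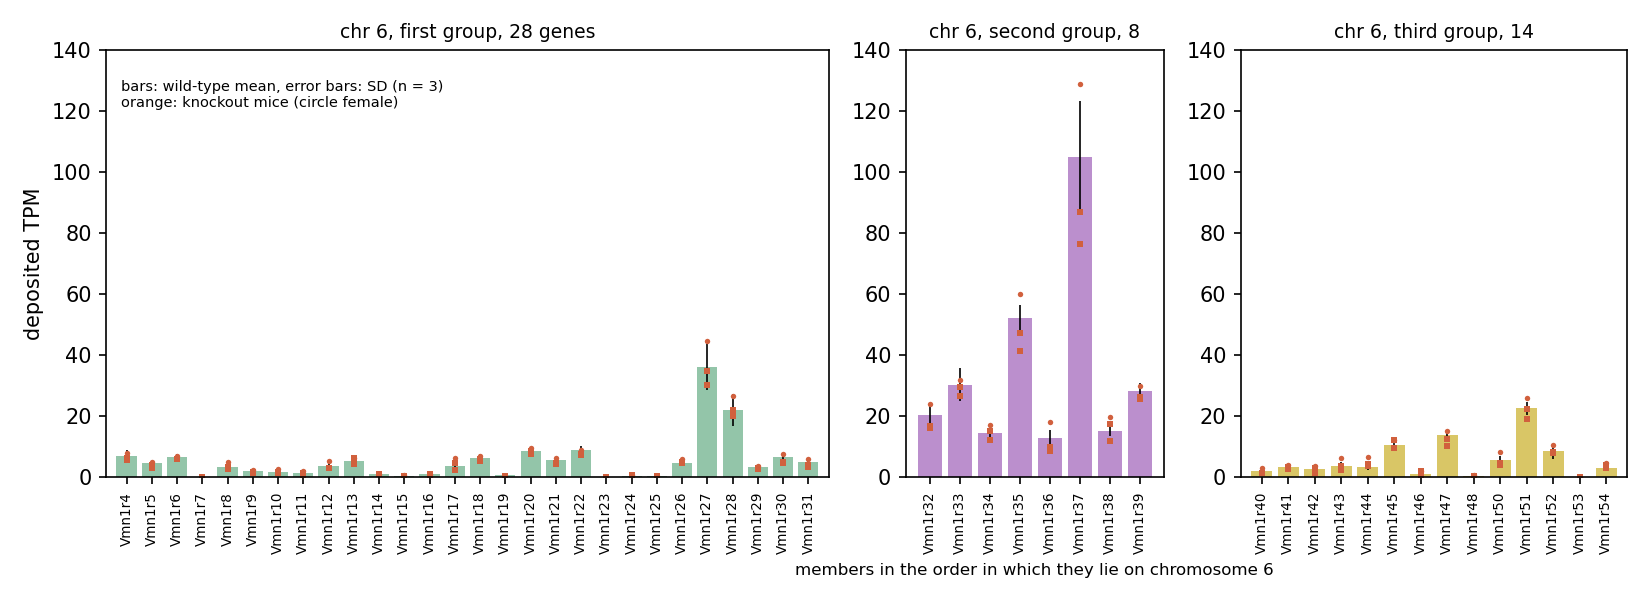
Deposited TPM of the chromosome 6 members in the order in which they lie on the chromosome, 1 panel per group. Bars are wild-type means with SD (n = 3) and orange symbols the knockout mice (square male, circle female). Every bar of the second group reaches at least 12.8 TPM, while most of the others lie under 10 TPM.

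Members with near-identical coding sequences could be assigned very different levels, which rest in part on how shared reads were divided. The TPM ratio of Vmn1r37 to Vmn1r36 was 8.21 ± 0.960 (SD, n = 3) in wild types and 8.24 ± 0.916 in knockouts, and ranged from 7.19 to 9.18 over the 6 mice. That of Vmn1r27 to Vmn1r20 was 4.23 ± 0.536 in wild types and 4.32 ± 0.651 in knockouts. Vmn1r47 was 32.7 ± 11.9 times Vmn1r48 in wild types and 25.7 ± 4.69 times in knockouts, and Vmn1r48 has 15.7% unique words. Vmn1r8 had 3.34 ± 0.242 TPM in wild types, while Vmn1r7 was listed at 0. Vmn1r9 and Vmn1r10, at 98.3% identity, had nearly the same level, with a ratio of 1.11 ± 0.205 in wild types and 1.03 ± 0.303 in knockouts. For each pair with a ratio, the ratios overlapped between genotypes. Vmn1r34 to Vmn1r37 summed to 184 ± 25.6 TPM in wild types and 174 ± 44.5 TPM in knockouts, as a sum over 4 receptors that share reads.

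**Figure D3:**
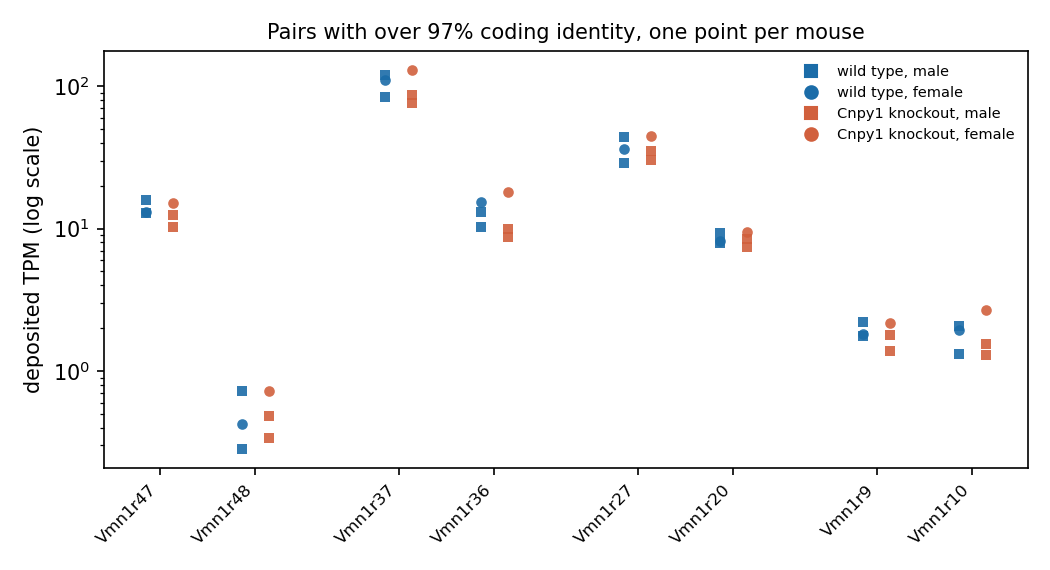
Deposited TPM on a log axis of pairs with more than 97% coding identity, 1 point per mouse (blue wild type, orange knockout, squares male, circles female). Vmn1r37 lies 7.19 to 9.18 times above Vmn1r36, whereas Vmn1r9 and Vmn1r10 overlap.

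Reads of most members were assigned mainly to annotated models with more than 1 exon, some of them retained-intron models without coding sequence. Reads across exon junctions were not examined. For 44 of the 50 members with reads, most reads were assigned to models with more than 1 exon, and for 11 they were assigned to models longer than 5 kb. The division of reads among models of a gene was unsteady. Of 211 member transcripts, 43 in 20 members were listed at 0 reads in some libraries and at 20 or more in others. Vmn1r46, an older V1rb receptor, shows what this did to TPM. Its 1-exon model of 930 bases had 38.9, 42.6 and 41.2 reads in wild-type replicate 3 and knockout replicates 1 and 3, and 0 in the others, while its 13338-base retained-intron model held 80.2% of the gene's reads. Its TPM were 1.71, 2.06 and 1.91 in the first 3 of these libraries and 0.694, 0.734 and 0.763 in the others, whereas its CPM ran only from 6.92 to 9.22. For Vmn1r44, with older V1ra and V1rb names, a 1108-base model was at 0 reads in all wild types and at 82.1, 50.3 and 132 in knockouts, an instance chosen after its values were seen. The genotype test used reads summed per gene.

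Between knockouts and wild types the members' RNA differed little, as did that of most genes tested. With edgeR's quasi-likelihood test and Benjamini-Hochberg adjustment over all 16679 genes tested, 0 of 48 members were called at an adjusted p under 0.05, where 0.761% of all genes were (0.0779% higher and 0.683% lower in knockouts). At an unadjusted p under 0.05 there were 5 members, all higher in knockouts, beside 10.5% of all genes in either direction, 4.55% higher and 5.99% lower. DESeq2's Wald test called 1 member, Vmn1r54, and 2.51% of all genes to which it gave an adjusted p. The median log2 fold change was 0.07 (range -0.21 to 0.79), beside 0.01 over all genes and 0.13 over the 120 V1Rs from Vmn1r55 upward that were tested. It was -0.03 in males only and -0.02 without knockout replicate 3. Of the 48 members, 31 lay above 0, beside 52.3% of all genes, and the count was 23 without knockout replicate 3, 42 without wild-type replicate 3 and 17 in males only.

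Precision differed among members. The 95% interval lay within 2-fold in both directions for 45 of 48 members, beside 90.4% of all genes. It lay within 1.5-fold for 37 members, and the share over all genes was not worked out. The 3 with wider intervals were Vmn1r25, Vmn1r48 and Vmn1r24, all at mean levels near or under 1 CPM. Vmn1r37 had a log2 fold change of -0.03 (95% interval -0.35 to 0.29), and for Vmn1r35 it was -0.01 (-0.22 to 0.21). Vmn1r51 had the value 0.06 (-0.06 to 0.18). Over the 10 most abundant members it ranged from -0.04 for Vmn1r32 to 0.16 for Vmn1r28, with the smallest edgeR adjusted p at 0.707.

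**Figure D4:**
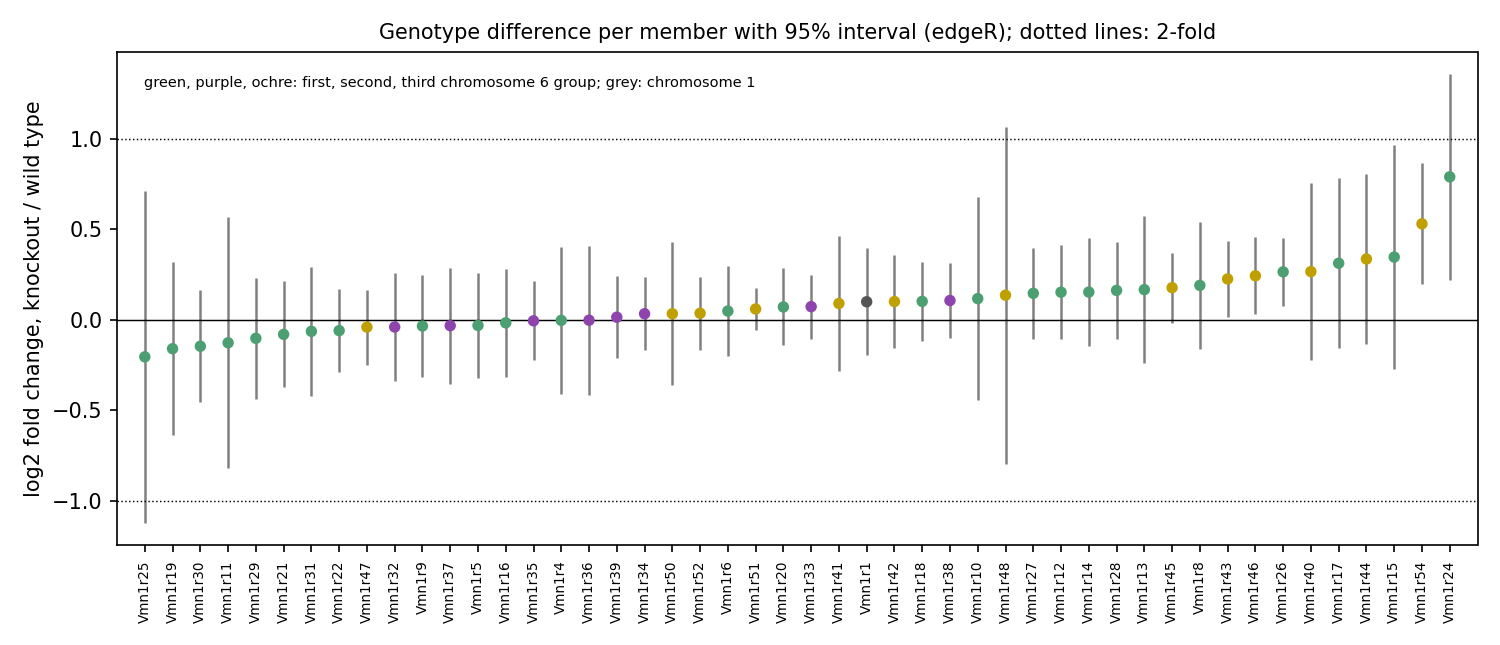
Fitted log2 fold change (knockout over wild type) of the 48 members tested, with 95% intervals from edgeR, in rising order and coloured by chromosome group. Dotted lines mark 2-fold changes. Estimates run from -0.21 for Vmn1r25 to 0.79 for Vmn1r24, and 45 intervals stay within 2-fold.

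The 5 members with an unadjusted p under 0.05 were also the 5 whose 3 knockouts all lay above all wild types in CPM. Among all genes tested, 7.24% lay so above and 8.96% below, and 0 members lay below. Vmn1r54, a V1ra receptor at the end of the third group (chr6:90246300-90271213), had 7.45, 6.31 and 6.07 CPM in wild types and 7.62, 10.4 and 10.6 in knockouts. The lowest knockout was close to the highest wild type. Its log2 fold change was 0.53 (0.15 SE, adjusted p = 0.232 in edgeR), and DESeq2's Wald test gave an adjusted p of 0.0257. It shares 12.2% of its 31-base words with 4930471M09Rik. Vmn1r24, a V1rc receptor (chr6:57954707-57961503), had 0.695, 0.482 and 0.551 CPM in wild types and 0.886, 1.199 and 0.908 in knockouts. The groups were apart but low, with a log2 fold change of 0.79 (0.25 SE, adjusted p = 0.307 in edgeR).

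Vmn1r26, a V1rc receptor (chr6:58004934-58015159), had 14.7, 16.8 and 14.1 CPM in wild types and 17.8, 17.8 and 19.1 in knockouts. Its log2 fold change was 0.26 (0.08 SE, adjusted p = 0.293 in edgeR). Vmn1r46 (chr6:89969313-89986721) had 7.26, 6.92 and 7.33 CPM in wild types and 9.22, 8.45 and 7.80 in knockouts. The groups were separate by a small margin, and the log2 fold change was 0.24 (0.09 SE, adjusted p = 0.406 in edgeR). Vmn1r43 (chr6:89858934-89876413) had 25.5, 22.3 and 26.7 CPM in wild types and 28.1, 26.8 and 32.1 in knockouts. The second knockout almost met the third wild type, and the log2 fold change was 0.23 (0.09 SE, adjusted p = 0.442 in edgeR). The annotated span of Vmn1r43, introns included, lies within that of Vmn1r42 on the same strand. The genes share 4.32% of the 31-base words of Vmn1r43 and 13.5% of those of Vmn1r42, and reads over these words cannot be told apart. In TPM, 2 of the 48 members tested had separate groups, and only 1 of them, Vmn1r24, was among these 5. The share over all genes in TPM was not worked out. The number of members with an unadjusted p under 0.05 was 12 without wild-type replicate 3, beside 8.97% of all genes in that fit. It was 3 without wild-type replicate 1 (8.82% of all genes), 3 without knockout replicate 1 (7.62%), 3 in males only (8.61%) and 2 without scaling factors (7.76%).

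After Vmn1r24 and Vmn1r54, the members with the highest estimates were Vmn1r15, Vmn1r44 and Vmn1r17. Vmn1r44 had 3.28, 3.49 and 5.19 CPM in wild types and 4.49, 4.47 and 6.12 in knockouts, a log2 fold change of 0.34 (SE 0.21). Vmn1r15 had 0.482 to 0.833 CPM in wild types and 0.752 to 0.848 in knockouts (0.35, SE 0.27). Vmn1r17 had 3.61 to 5.14 CPM in wild types and 4.08 to 6.89 in knockouts (0.31, SE 0.20). The groups overlapped in each. At the lower end, Vmn1r25 had 0.182, 0.370 and 0.215 CPM in wild types and 0.234, 0.154 and 0.268 in knockouts, a log2 fold change of -0.21 (SE 0.40). The other low estimates were -0.16 for Vmn1r19 (SE 0.21), -0.15 for Vmn1r30 (SE 0.13), -0.13 for Vmn1r11 (SE 0.30) and -0.10 for Vmn1r29 (SE 0.15). All 5 overlapped between genotypes in CPM, and the size of each estimate was close to its SE or under it.

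By chromosome group, the median log2 fold change was 0.06 over 26 members of the first, 0.01 over 8 of the second (range -0.04 to 0.11) and 0.14 over 13 of the third (-0.04 to 0.53). In the third group 12 of 13 lay above 0, and 7 of 13 did in males only. The summed TPM of the second group was 278 ± 37.9 in wild types and 266 ± 57.0 in knockouts (SD, n = 3). For the first group it was 149 ± 25.9 and 149 ± 28.2, and for the third 80.3 ± 12.8 and 83.5 ± 18.0. Over all members, reads summed to 701, 758 and 875 CPM in wild types and 742, 713 and 944 in knockouts, relative to all reads in genes and without TMM scaling. The genotype means of 778 ± 88.8 and 800 ± 126 CPM (SD, n = 3 each) differed by less than the spread between mice, with a log2 ratio of 0.04. In both genotypes replicate 3 was the highest.

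**Figure D5:**
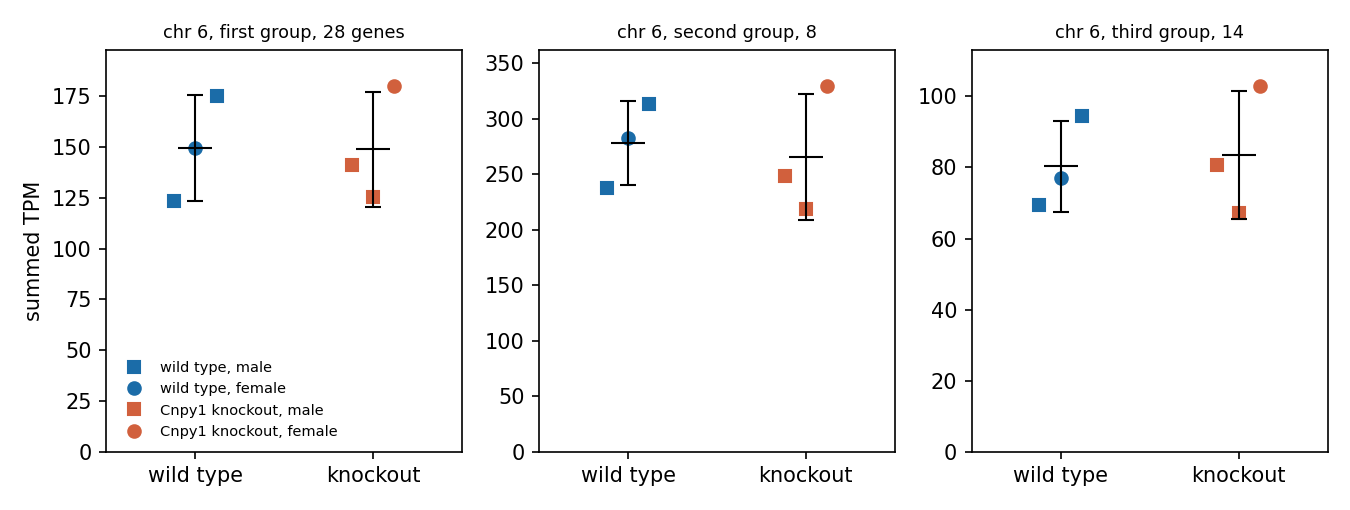
Summed deposited TPM of each chromosome 6 group, with 1 point per mouse (squares male, circles female), the mean and SD (n = 3). Within each panel the highest library of both genotypes is replicate 3, and the means of the genotypes lie within 1 SD of each other.

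The level of supporting cell and gland genes moved against these sums. A list of 8 such genes, which Obp2a led, summed without TMM scaling to 116500, 92879 and 88289 CPM in wild types and 112337, 134339 and 95875 CPM in knockouts. It was lowest in wild-type replicate 3 and, among knockouts, in replicate 3. The list held 0 genes called between genotypes by edgeR and 1 with an unadjusted p under 0.05, with a median log2 fold change of -0.07. Its part in the members' levels was not tested.

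Other genes of V1R neurons were read from lists in the same fit. The apical neuron list, with transduction and identity genes, had 0 of 7 genes called by edgeR, 1 with an unadjusted p under 0.05, and a median log2 fold change of 0.07. Gnai2 had 681, 630 and 620 CPM in wild types and 749, 696 and 734 in knockouts, a log2 fold change of 0.17 (edgeR adjusted p = 0.377). All knockouts lay above all wild types for Gnai2 and Meis2, 2 of the 7 genes, beside 7.24% of all genes tested. Of 16 genes tested that serve both neuron classes or mark mature neurons, 1 was called, Stom, which fell (-0.36, edgeR adjusted p = 0.0356). In 8 of these 16, all knockouts lay below all wild types, beside 8.96% of all genes tested. One was Trpc2, with 340, 311 and 284 CPM in wild types and 268, 234 and 247 in knockouts (-0.32, edgeR adjusted p = 0.197). The list's median was -0.17, beside 0.07 for the members.

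Markers of other cells were read the same way. Of 9 basal neuron markers, 3 fell, namely Gnao1 (-0.41), Vmn2r1 (-0.72) and Vmn2r7 (-0.61), and V2R genes had a median of -0.72 with 61 of 119 called lower and 7 called higher. Of 9 immature neuron genes, 1 rose, the mitotic gene Top2a (0.40, edgeR adjusted p = 0.0421), and the list's median was 0.34. The lists of main olfactory neurons, immune cells, glia and vessels, and erythroid cells had 0 genes called by edgeR, with 4, 3, 1 and 0 at an unadjusted p under 0.05, and medians of -0.10, 0.21, -0.0046 and 0.13. Whether these lists bear on the members' levels was not tested.

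Females and males were compared after the data had been seen, with genotype as a term (2 females, 1 of each genotype, against 4 males). By edgeR's quasi-likelihood test 0 of 48 members were called, beside 0.042% of all genes, and 5 had an unadjusted p under 0.05, beside 5.5% of all genes. Those 5 (Vmn1r36, Vmn1r13, Vmn1r11, Vmn1r37 and Vmn1r26) had higher estimates in females. Vmn1r36 had 14.04 and 15.29 CPM in the females and 10.3, 11.5, 9.75 and 10.7 in the males. Both females lay above all males, with a log2 fold change of 0.47 (0.09 SE, adjusted p = 0.635 in edgeR), and DESeq2's Wald test called it (adjusted p = 0.0275) with 0.361% of the genes it adjusted. For Vmn1r37 the females had 93.6 and 109 CPM and the males 79.9, 97.1, 77.5 and 77.7. Here the groups overlapped (0.29, 0.11 SE, adjusted p = 0.856 in edgeR).

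Vmn1r13, a V1rc receptor with 95.3% unique words, had 14.8 and 14.9 CPM in the females and 9.79, 10.2, 13.2 and 10.8 in the males. Its log2 fold change was 0.44 (0.11 SE, adjusted p = 0.852 in edgeR). Both females lay above all males in 4 members and below them in 1 (Vmn1r14), beside 6.67% and 6.47% of all genes. Of the 48 members, 38 had estimates above 0, beside 49.9% of all genes, and the count was 12 without knockout replicate 3, the knockout female, and 43 without wild-type replicate 2, the wild-type female. With 1 female per genotype, a difference between single mice and one between the sexes cannot be told apart.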

How the data were processed

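Each library came with a table in which the authors gave an estimated count and a TPM value for each of 117081 transcripts, per the file headers. Per the submitters' processing notes, Trim Galore 0.6.6, Salmon 1.9.0, DESeq2 and mm10/GRCm38 were used, with no roles given. Deposited TPM served for levels and were not tested. Transcripts were joined to GENCODE M21 genes (115942 matched), and the unmatched held 0.304% of reads. The estimated counts of the transcripts of each gene were added up and rounded (35450 genes).

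Genotype was tested in all 6 libraries with edgeR 4.0.16 (R 4.3.3), using the quasi-likelihood F test, TMM and filterByExpr. The model had no term besides genotype, and p-values of 16679 genes were adjusted by the Benjamini-Hochberg method. Common biological variation was 12.8%. On simulated data, 77% of 2-fold and 95% of 4-fold changes were recovered. DESeq2 1.42.0 was an alternative. Each library was 1 mouse. Coding sequences were read from GENCODE M21 transcripts and aligned with Biopython 1.88. Coding identity is of nucleotides, because no protein table was used here, although proteins had been planned. Uniqueness is the share of 31-base words found in no other gene.

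Members named were the 10 most abundant, the 5 highest and the 5 lowest estimates among members tested, those with an unadjusted p under 0.05 or with separate groups at a mean of at least 1 CPM, and those at 0 reads. Members compared by sex or by sequence were singled out once values were known. Earlier results of these data were known when the members were set by gene symbol and when the lists were written. The lists were apical neuron, shared transduction, basal neuron, immature neuron, main olfactory neuron, supporting cell and gland, immune, glia and vessel, and erythroid genes. Ano2 and Cnga4 were in both the shared transduction and main olfactory lists, and Lhx2 in both the apical and immature neuron lists. Leaving out each library, other scalings, no filter, sex as a term, males only and a replicate block were tried.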

Additional observations from a re-analysis of the deposited data

How the results depend on the processing

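The 127 genes called over the whole table became 411 with DESeq2's Wald test, 76 in males only and 69 to 96 with 1 library left out. The count of members called was 0 in every fit except DESeq2's, which called 1 between genotypes (Vmn1r54, 0.53) and 1 between sexes (Vmn1r36). Over the 48 members tested, 14 estimates changed sign in males only, 5 to 11 with 1 library left out and 1 without scaling factors. Among the 23 members chosen for naming, estimates changed sign, all without a call, for Vmn1r39 without scaling factors (-0.016), and in males only for Vmn1r39 (-0.13), Vmn1r34 (-0.052) and Vmn1r17 (-0.014). With 1 library left out, sign changes among these 23 were seen for Vmn1r39 (-0.088 to 0.10), Vmn1r34 (-0.018 to 0.12), Vmn1r25 (-0.40 to 0.14), Vmn1r11 (-0.51 to 0.11), Vmn1r37 (-0.22 to 0.052), Vmn1r35 (-0.12 to 0.050), Vmn1r32 (-0.16 to 0.093) and Vmn1r29 (-0.22 to 0.0059). Males only and 1 library fewer use fewer samples, and otherwise the cause was not tested. The median and the summed CPM of the members moved by less than 1 SD between wild types, from -0.03 to 0.14 and from -0.12 to 0.13 as log2 values.

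Whether replicate numbers pair the mice could not be settled from correlations of deviations taken within 3 libraries per genotype. Correlations of same-numbered libraries were 0.28, -0.06 and 0.31. Wild-type replicates 1 and 3 correlated best with their own number, and wild-type replicate 2 did not. With the replicate number as a block, 154 genes and 0 members were called, and 8 members had an unadjusted p under 0.05, beside 13.4% of all genes. Both organs of 3 mice per genotype limit the precision. Members under 1 CPM and members with few unique words are the least certain.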
